A study of Mus musculus with 2 samples.

Results

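A set of 10 genes along a stretch of mouse chromosome 15 were followed through the immune cells of an experimental brain tumour: Dcstamp, Dpys, Rims2, Zfpm2, Csmd3, Laptm4b, Fbxo32, Med30, Ctnnd2 and Ankrd33b. They are 10 of the 218 counted genes that lie between 30 and 60 Mb, and of 32285 genes in all. They were picked by name because of how far their transcript levels stood apart between 2 libraries, so every difference between those libraries given here is a description and not a test. The question asked was whether the difference is shared by all cell types. Levels across cell types within a library were not used to pick them. Shares of cells that carry the transcripts restate the same contrast when set between the libraries. The genes around the 10 are those that were not picked, so a smaller difference in them follows in part from the picking.

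The libraries came from a wildtype mouse and from a mouse labelled Glut5 KO, without the fructose transporter encoded by Slc2a5. The series' design text calls the second genotype a knockdown, while the sources used here do not give the deleted exons, strain, age or number of animals. CT-2A cells, an established mouse glioma line, were placed in the brain of both mice. The tumours were taken on day 14, and leukocytes were drawn from the cell suspension with magnetic beads against CD45. In each case 16000 cells were loaded for droplet sequencing of transcript 5' ends, with 1 library per genotype. Replicates are lacking, so p-values are not given, and a difference of genotype cannot be told apart from one of the library, its animals or its handling. Brackets give exact 95% intervals for counting error only.

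Dcstamp encodes the transmembrane protein through which osteoclasts and macrophage giant cells fuse, and it was first described in dendritic cells. Dpys encodes dihydropyrimidinase, an enzyme of uracil and thymine breakdown that is known from liver and kidney. Rims2 belongs to the scaffold of presynaptic active zones, Csmd3 encodes a very large membrane protein of the brain, and Ctnnd2 encodes delta-catenin, which binds cadherins at neuronal junctions. Zfpm2 encodes FOG2, a cofactor of GATA transcription factors in heart and gonad. Laptm4b encodes a membrane protein of lysosomes and late endosomes, Fbxo32 the ubiquitin ligase subunit atrogin-1 of muscle wasting, and Med30 a subunit of the Mediator complex, which links transcription factors to RNA polymerase II. Ankrd33b encodes an ankyrin repeat protein.

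The wildtype library held 116105873 UMIs (unique transcript tags) in 11495 barcodes and the Glut5 KO library 96851696 UMIs in 12165 barcodes. Of these, 11473 and 12112 barcodes had at least 300 genes and under 10% mitochondrial UMIs, with medians of 8682 and 6523.5 UMIs. Before any filter Slc2a5 was counted 384 times in the wildtype library and 1 time in the Glut5 KO library. Cells were put in classes by marker genes, and 7 classes with at least 200 cells in each library were compared. The cell numbers, wildtype first, were 1350 and 1135 for microglia-like, 4775 and 4542 for monocyte/macrophage-like, 307 and 258 for cDC1-like, 291 and 306 for cDC2-like, 341 and 297 for migratory dendritic cell-like, 404 and 751 for T cell-like and 329 and 382 for NK cell-like cells. cDC1 and cDC2 are the main kinds of conventional dendritic cells. Left in no class were 30.2% of the cells in wildtype and 29.8% in Glut5 KO. Ptprc, which encodes CD45, stood between 174 and 1020 CPM (counts per 1e6 UMIs of the class) in the compared classes, against 5.75 and 9.02 CPM in the few cells with tumour, glial or vessel markers. The summed level of the 18 markers of those other cells lay between 59.3 and 170 CPM in the compared classes, with 2 to 13 of them at 0. The libraries shared 188 barcodes. Each library held cells with Y-linked UMIs and no Xist (3620 wildtype and 2646 Glut5 KO) as well as cells with Xist and no Y-linked UMI (2891 and 3473), although each label names a single mouse.

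Dcstamp was far higher in the Glut5 KO library in each of the 6 compared classes where it could be measured, which required at least 20 UMIs over both libraries. In microglia-like cells its level was 1.87 CPM [1.1997 to 2.79] in wildtype and 48.8 CPM [44.4 to 53.4] in Glut5 KO. Monocyte/macrophage-like cells had 4.56 CPM [3.98 to 5.21] and 76.3 CPM [73.6 to 79.2], a ratio of 16.7. In each of the 6 measured classes the intervals of the 2 libraries were apart.

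Among the compared classes, cDC2-like and then cDC1-like cells had the highest Dcstamp level in both libraries. In cDC2-like cells, which take up antigen for helper T cells, the level was 61.9 CPM [52.8 to 72.0] in wildtype and 543 CPM [516 to 572] in Glut5 KO. In cDC1-like cells, which present antigen to killer T cells, it was 12.6 and 99.5 CPM, and in migratory dendritic cell-like cells, marked by Ccr7, it was 6.09 and 35.3 CPM. The place of the migratory class differed, next after cDC1-like cells in wildtype and lowest of the 6 measured classes in Glut5 KO, where its interval lay below that of monocyte/macrophage-like cells. Its wildtype level came from 15 UMIs in 3 cells, so its place in that library is uncertain. In wildtype, migratory dendritic cell-like cells overlapped in interval with cDC1-like and with monocyte/macrophage-like cells, and microglia-like cells overlapped with T cell-like cells. In Glut5 KO, the interval of migratory dendritic cell-like cells overlapped with those of T cell-like and, barely, microglia-like cells.

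By UMI counts, the size of the Dcstamp difference was not the same in all classes. On the log2 scale the ratio of Glut5 KO over wildtype (0.5 added to each count) was 4.67 [4.11 to 5.36] in microglia-like and 4.06 [3.87 to 4.27] in monocyte/macrophage-like cells. It was 3.13 [2.90 to 3.37] in cDC2-like, 2.97 [2.56 to 3.42] in cDC1-like and 2.496 [1.72 to 3.44] in migratory dendritic cell-like cells, so the interval of each dendritic class lay below those of both macrophage classes. These intervals take UMIs as independent and do not cover UMIs that lie together in few cells. In wildtype, the 15 UMIs of the migratory class lay in 3 cells, and 12 of 24 microglia-like UMIs in 1 cell. The order of the classes is therefore less certain than the intervals show. Removing the 8% of cells with the highest doublet scores took the migratory class to 5.19, above the main ratios of both macrophage classes. Naming cells by cluster took the cDC1-like class to 1.54. Male cells of the migratory class had 11 UMIs in wildtype and 8 in Glut5 KO (0.23 [-1.31 to 1.66]), fewer than the 20 UMIs set for a measured ratio. Female cells of that class had 0 and 40 UMIs.

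In lymphocyte gates the same transcript was scarce in wildtype. T cell-like cells held 6 UMIs of Dcstamp in wildtype (1.39 CPM) against 242 in Glut5 KO (37.3 CPM), a log2 ratio of 4.63 [3.60 to 6.202]. NK cell-like cells had 0 and 9 UMIs, too few for a ratio. Macrophage transcripts were found in these gates too: in Glut5 KO, NK cell-like cells had C1qa at 9.85% and Lyz2 at 5.24% of the monocyte/macrophage-like level, and Dcstamp at 6.195%. There the share for Dcstamp lay between those of the macrophage genes. In T cell-like cells of Glut5 KO the shares were 20.5% for C1qa, 9.65% for Lyz2 and 48.8% for Dcstamp. Without T cell-like cells that held many UMIs of C1q, Lyz2 or Apoe (98 wildtype and 126 Glut5 KO cells), the ratio was 3.76. In cDC2-like cells Dcstamp stood at 712% of its monocyte/macrophage-like level, with C1qa at 10.2%. The part of carried-over RNA in the lymphocyte values was not tested.

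Dpys was higher in Glut5 KO in the same 6 classes as Dcstamp, and both were picked on that contrast. Their levels across classes differed. In Glut5 KO cDC2-like cells Dcstamp stood at 712% and Dpys at 95.3% of the monocyte/macrophage-like level, and in cDC1-like cells at 130% and 23.6%. The level of Dpys in monocyte/macrophage-like cells was 3.44 CPM [2.93 to 4.003] in wildtype and 74.5 CPM [71.8 to 77.3] in Glut5 KO, a log2 ratio of 4.43 [4.21 to 4.67]. In microglia-like cells it was 1.01 and 36.5 CPM, a log2 ratio of 5.12 [4.38 to 6.09]. As for Dcstamp, the intervals of the 2 libraries were far apart in both macrophage classes.

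The dendritic and T cell gates showed the same direction for Dpys. In cDC2-like cells wildtype had 6 UMIs of it (2.22 CPM) and Glut5 KO 192 (71.0 CPM), and in cDC1-like cells the counts were 2 and 52 UMIs (0.451 and 17.6 CPM). Migratory dendritic cell-like cells had 1 and 19 UMIs, and T cell-like cells 4 and 106. The log2 ratios of these 4 classes lay between 3.97 and 4.98, and all their intervals overlapped. Within Glut5 KO, monocyte/macrophage-like and cDC2-like cells had the highest levels with overlapping intervals, followed by microglia-like cells at 36.5 CPM. NK cell-like cells had 1 and 7 UMIs of Dpys, and the Glut5 KO level there was 4.94% of the monocyte/macrophage-like level. An antisense gene, Gm16291, overlaps Dpys, and the sources used here do not state whether counting used strand.

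Rims2 and Zfpm2, the outer genes of the same cluster, were nearly absent from wildtype. Rims2 had 3 UMIs in wildtype microglia-like cells (0.234 CPM) and 202 in Glut5 KO (21.1 CPM), a log2 ratio of 6.28 [4.93 to 8.79]. Monocyte/macrophage-like cells had 10 and 386 UMIs (0.208 and 10.1 CPM), a log2 ratio of 5.53 [4.71 to 6.67]. Unlike Dcstamp and Dpys, this synaptic gene was not seen in cDC2-like cells, with 0 UMIs in both libraries. The Glut5 KO total of that class allows up to 3 counts, or 1.11 CPM, behind that 0. In cDC1-like, T cell-like, migratory dendritic cell-like and NK cell-like cells Rims2 had 3 to 9 UMIs in Glut5 KO and at most 2 in wildtype.

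Zfpm2 was higher in Glut5 KO in the 3 classes where it was measured. Microglia-like cells had 14 UMIs in wildtype and 130 in Glut5 KO (1.09 and 13.6 CPM), a log2 ratio of 3.59 [2.84 to 4.55]. Monocyte/macrophage-like cells had 13 and 79 UMIs (0.271 and 2.07 CPM). In cDC1-like cells it went from 0 UMIs in wildtype to 43 in Glut5 KO (14.6 CPM), at least 21.5-fold higher against a floor of 3 counts over the class. Within Glut5 KO the intervals of cDC1-like and microglia-like cells overlapped, and monocyte/macrophage-like cells had less.

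Of the compared classes, microglia-like cells had the highest level of Csmd3. It was 21.1 CPM [18.7 to 23.8] in wildtype and 50.7 CPM [46.2 to 55.4] in Glut5 KO, a log2 ratio of 1.26 [1.04 to 1.48]. Monocyte/macrophage-like cells had 0.271 and 0.970 CPM, from 13 and 37 UMIs, a log2 ratio of 1.81 [0.90 to 2.88] that was 0.63 with 1 CPM added. In the other 5 compared classes it stayed under 20 UMIs.

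Laptm4b had its highest level in migratory dendritic cell-like cells, and there the libraries were close. That class had 346 CPM [323 to 370] in wildtype and 364 CPM [338 to 391] in Glut5 KO, a log2 ratio of 0.07 [-0.07 to 0.22]. cDC1-like cells, next in level, had 53.4 and 56.5 CPM, a log2 ratio of 0.08 [-0.21 to 0.37]. Both intervals exclude a 2-fold difference. By sex, the migratory ratio was 0.45 [0.18 to 0.72] in male and -0.25 [-0.55 to 0.05] in female cells. Those intervals do not overlap, so the close pooled levels joined opposite signs.

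The macrophage and T cell gates showed more Laptm4b in Glut5 KO. Microglia-like cells had 23.0 and 48.2 CPM (log2 ratio 1.07 [0.85 to 1.28]), and monocyte/macrophage-like cells 8.77 and 21.4 CPM (1.29 [1.12 to 1.46]). T cell-like cells had 6.73 and 21.3 CPM, a log2 ratio of 1.64 [1.07 to 2.29] that was 0.94 when cells were named by cluster. cDC2-like cells lay between, at 7.78 and 12.9 CPM. All 6 measured classes had a ratio above 0, and 3 were past 2-fold, so the difference of this lysosomal gene was not shared by all classes: the intervals of the migratory and cDC1-like classes do not reach those of both macrophage gates.

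Fbxo32, the atrogin-1 gene, had no common direction. In monocyte/macrophage-like cells its level was 13.2 CPM [12.2 to 14.3] in wildtype and 23.7 CPM [22.2 to 25.3] in Glut5 KO, a log2 ratio of 0.84 [0.70 to 0.99]. In T cell-like cells it was 15.1 CPM [11.6 to 19.2] and 9.55 CPM [7.32 to 12.2], a log2 ratio of -0.66 [-1.19 to -0.14]. The intervals of these opposite ratios do not overlap. In the other 4 classes with enough UMIs the ratios were 0.61 (microglia-like), 0.55 (NK cell-like), -0.22 (migratory dendritic cell-like) and -0.23 (cDC2-like), each with an interval that includes 0. Fbxo32 was past 2-fold in 0 of 6 classes. The T cell-like ratio was 0.18 when cells were named by cluster, and the microglia-like ratio was -0.14 under the stricter gate.

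Med30 was a little lower in Glut5 KO in all 7 classes, past 2-fold in 1. cDC2-like cells had 108 CPM [96.1 to 121] in wildtype and 46.6 CPM [38.8 to 55.5] in Glut5 KO, a log2 ratio of -1.21 [-1.53 to -0.91]. In the other 6 classes the log2 ratio lay between -0.20 and -0.47. The largest class, monocyte/macrophage-like cells, had 42.2 and 31.4 CPM, a log2 ratio of -0.43 [-0.53 to -0.32]. The interval of the T cell-like ratio included 0, and no interval of another class reached that of cDC2-like cells, whose ratio was -0.96 among female cells. Of the 10 genes, Med30 and Fbxo32 were the least apart between the libraries, and the name of outlier holds for them in 1 class and in 0 classes.

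Ctnnd2 and Ankrd33b went the other way from Dcstamp. Ctnnd2 was highest in cDC2-like cells, with 97.4 CPM [86.0 to 110] in wildtype and 22.9 CPM [17.6 to 29.4] in Glut5 KO, a log2 ratio of -2.08 [-2.51 to -1.68]. In cDC1-like cells it had 51 UMIs in wildtype and 8 in Glut5 KO (11.5 and 2.71 CPM), and in T cell-like cells 32 and 9 (7.43 and 1.39 CPM). Monocyte/macrophage-like cells had 61 and 19 UMIs (1.27 and 0.498 CPM), a log2 ratio of -1.33 [-2.18 to -0.59]. That last ratio was within 2-fold under 4 other settings, at -0.60 with 1 CPM added, -0.77 without high doublet scores, -0.82 by cluster and -0.999 in male cells. NK cell-like cells had 14 and 0 UMIs, which is at least 5.55-fold lower by the 3-count floor. The antisense genes 4930570B17Rik and 9630009A06Rik overlap Ctnnd2.

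Of the compared classes, migratory dendritic cell-like cells had the highest level of Ankrd33b. They had 225 UMIs in wildtype and 42 in Glut5 KO (91.4 CPM [79.8 to 104] and 20.9 CPM [15.03 to 28.2]), a log2 ratio of -2.12 [-2.64 to -1.65]. Monocyte/macrophage-like cells had 125 and 22 UMIs (2.60 and 0.577 CPM), a log2 ratio of -2.15 [-2.90 to -1.51]. In microglia-like cells it had 35 and 11 UMIs, a log2 ratio of -1.202 [-2.37 to -0.24], which was within 2-fold with 1 CPM added (-0.79), without high doublet scores (-0.96), under the stricter gate (-0.28) and by cluster (-0.71).

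Ctnnd2 and Ankrd33b had their peaks in different classes, cDC2-like and migratory, and the ratios there, -2.08 and -2.12, had overlapping intervals. They are the first of the 10 along the chromosome. RefSeq's promoter table for GRCm38.p6 matched these 2 of the 10. Their promoters, 250 bases before to 50 bases after the RefSeq start, are shown because only these were at hand. Monocyte/macrophage-like cells were the only compared class where both genes were measured, and both were lower there in Glut5 KO. Ctnnd2 lies at chr15:30172284-30172583 on the plus strand and Ankrd33b at chr15:31367710-31368009 on the minus strand, both read 5′ to 3′, with capitals marking the GC box letters GGGCGG on either strand.
Ctnnd2: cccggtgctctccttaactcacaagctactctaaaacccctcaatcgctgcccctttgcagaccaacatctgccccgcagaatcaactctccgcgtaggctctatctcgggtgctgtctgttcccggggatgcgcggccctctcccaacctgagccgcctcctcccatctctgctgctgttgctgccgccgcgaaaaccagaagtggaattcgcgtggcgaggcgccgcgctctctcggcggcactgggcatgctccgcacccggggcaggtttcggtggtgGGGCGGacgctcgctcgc
Ankrd33b: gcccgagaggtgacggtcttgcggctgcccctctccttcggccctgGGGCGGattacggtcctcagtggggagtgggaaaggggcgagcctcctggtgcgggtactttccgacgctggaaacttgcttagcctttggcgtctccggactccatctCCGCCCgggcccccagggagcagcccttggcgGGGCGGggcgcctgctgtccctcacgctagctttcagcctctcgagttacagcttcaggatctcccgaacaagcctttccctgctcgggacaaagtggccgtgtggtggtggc
Both stretches are rich in G and C (64.7% and 66.0%). The GC box letters occur 1 time in the Ctnnd2 window and 3 times in that of Ankrd33b, and 35.7% of all 32851 promoter windows hold them. Neither window holds TATAAA (13.6% of all windows), CCAAT (37.4%) or GAGGAAG, the core letters bound by the myeloid factor PU.1 (13.6%), on either strand.

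**Figure D1:**
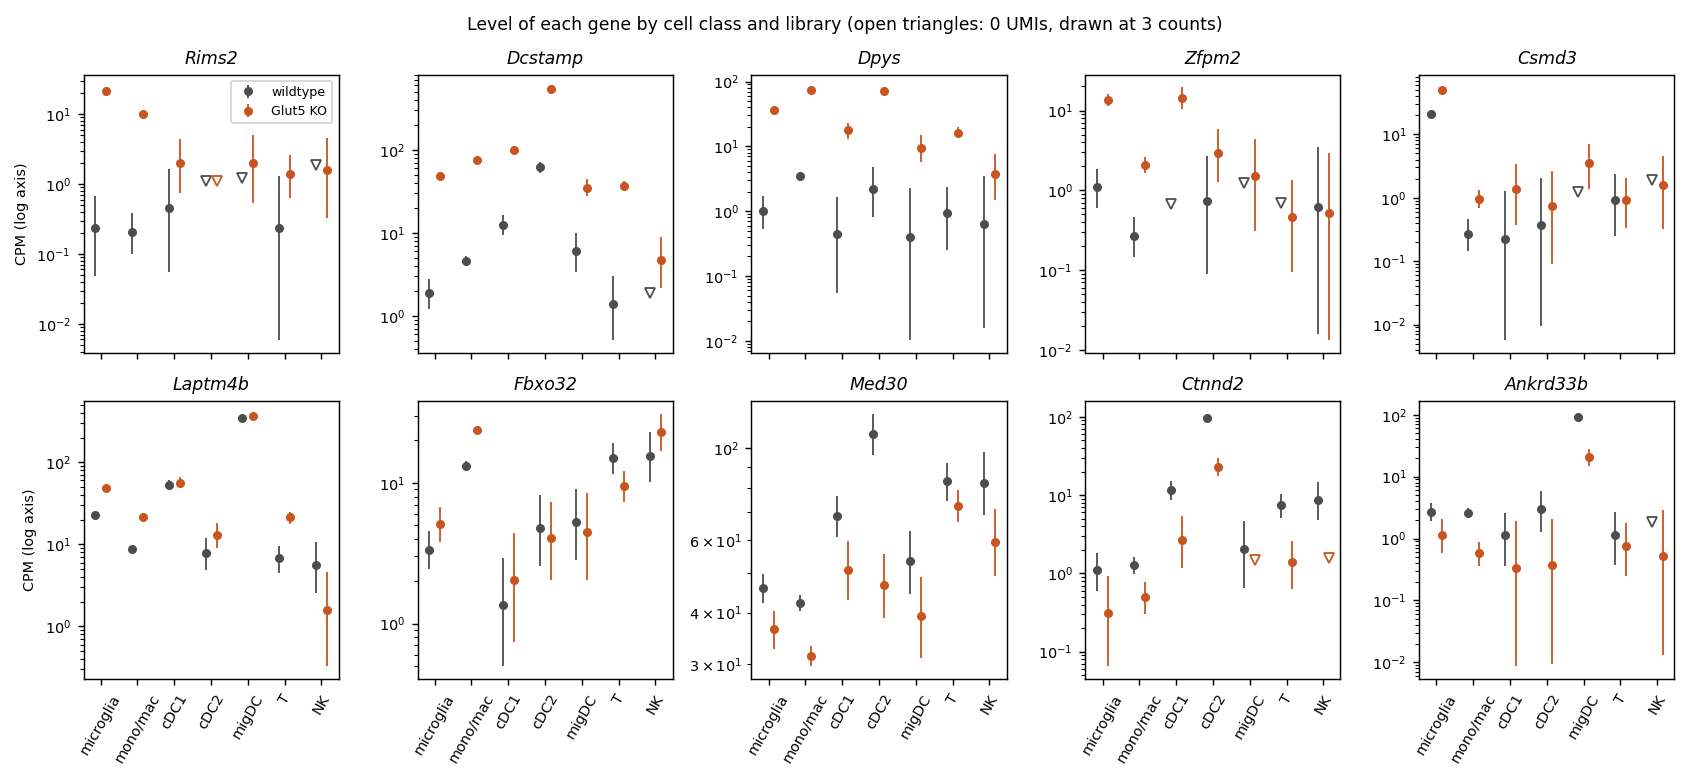
Level of each of the 10 genes in CPM (log axis) by cell class, wildtype in grey and Glut5 KO in orange, with exact 95% counting intervals. Open triangles mark 0 UMIs and are drawn at 3 counts. Dcstamp is highest in cDC2-like cells of both libraries (61.9 and 543 CPM), and Laptm4b in the migratory class is level between them (346 and 364 CPM).

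Counted by class, the 10 genes stood as follows beside all genes with at least 20 UMIs. Since the 10 were picked on this contrast, the background shares are given for scale and nothing is read from the gap. In microglia-like cells 9 of the 10 were measured, 6 at least 2-fold higher and 1 at least 2-fold lower in Glut5 KO, where 1.22% and 2.38% of all measured genes were. In monocyte/macrophage-like cells all 10 were measured, 6 higher and 2 lower, with 2.6% and 2.32% of all genes. In cDC1-like cells 3 of 6 were higher and 1 lower (all genes 1.84% and 1.89%). In cDC2-like cells 2 of 6 were higher and 2 lower (2.03% and 1.58%).

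Fewer of the 10 could be read in the remaining classes. In migratory dendritic cell-like cells 2 of 6 were higher and 1 lower (all genes 2.12% and 1.81%), and in T cell-like cells 3 of 6 were higher and 1 lower (2.71% and 1.95%). In NK cell-like cells only Med30 and Fbxo32 were measured, and 0 of them was past 2-fold in either direction (1.81% and 2.17%).

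Counted by gene, 7 of the 10 were past 2-fold in the same direction in every compared class where they were measured. Dcstamp and Dpys were at least 2-fold higher in 6 of 6 classes, as were 0.207% of genes measured in 6 classes. Zfpm2 was higher in 3 of 3 (0.792% of genes measured in as many), and Rims2 and Csmd3 in 2 of 2 (2.78%). Ctnnd2 was lower in 4 of 4 (0.594%) and Ankrd33b in 3 of 3 (1.02%). Laptm4b, Med30 and Fbxo32 were not, with 3 of 6, 1 of 7 and 0 of 6 classes.

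**Figure D2:**
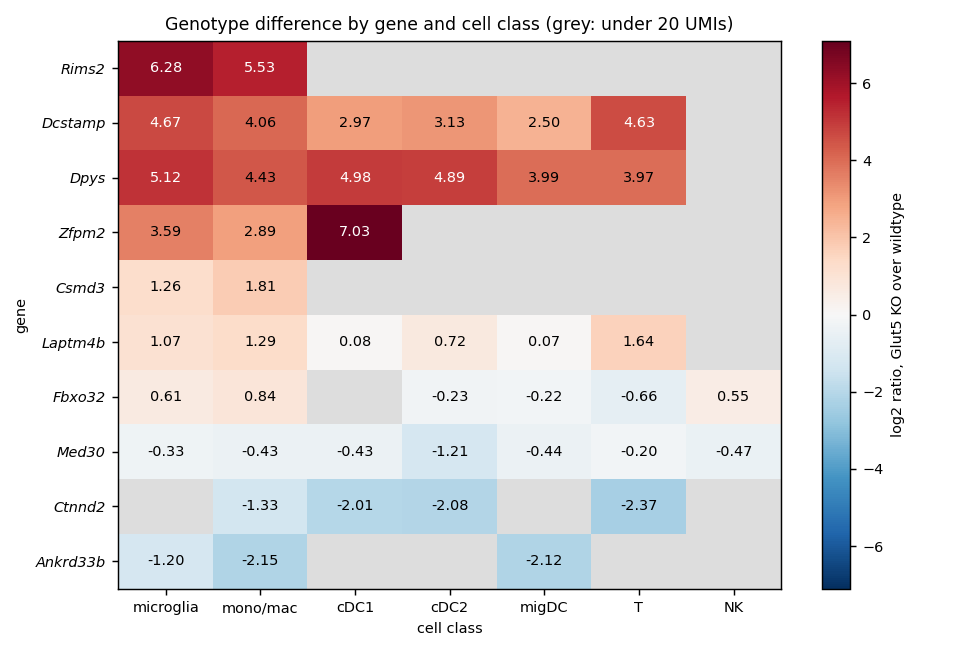
Log2 ratio of Glut5 KO over wildtype for each gene (rows) and cell class (columns), with 0.5 added to each count; grey cells had under 20 UMIs. Dcstamp and Dpys are above 2 in all 6 measured classes, Fbxo32 runs from -0.66 to 0.84, and the Zfpm2 value of 7.03 in cDC1-like cells rests on 0 wildtype UMIs.

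In the classes too small to compare, some values followed these directions and some did not. Plasmacytoid dendritic cell-like cells had 0 UMIs of Dcstamp in wildtype and 98 in Glut5 KO (57.8 CPM), and B cell-like cells 0 and 107 (64.9 CPM), from 27 B cell-like cells in wildtype and 267 in Glut5 KO. In cells with tumour, glial or vessel markers Dcstamp had 0 UMIs in both libraries, while Laptm4b was at 147 and 158 CPM. Plasmacytoid dendritic cell-like cells also had 19 and 1 UMIs of Ctnnd2. Neutrophil-like cells (19 in wildtype and 90 in Glut5 KO) had 7 and 16 UMIs of Csmd3, or 122 and 74.4 CPM, a log2 ratio of -0.77 [-2.07 to 0.81]. That level is above the microglia-like one in both libraries, though in Glut5 KO the intervals overlap. The same cells had 4 and 18 UMIs of Ankrd33b, or 69.6 and 83.7 CPM, a log2 ratio of 0.13 [-1.34 to 2.29], and B cell-like cells had 49.9 and 16.4 CPM. In neutrophil-like cells Csmd3 and Ankrd33b were thus not past 2-fold, and the signs were opposite to those in the compared classes.

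More cells carried Dcstamp in Glut5 KO. In monocyte/macrophage-like cells at least 1 UMI was found in 84 of 4775 cells of wildtype and in 718 of 4542 of Glut5 KO. With each cell thinned to 1000 UMIs, the shares were 0.36% [0.21 to 0.57] and 5.05% [4.42 to 5.75], after 42 and 246 shallower cells were left out, against 1.76% and 15.8% without thinning. In cDC2-like cells the thinned shares were 3.81% [1.92 to 6.71] and 36.4% [30.9 to 42.2]. NK cell-like cells, which should lack the gene, had 0 of 314 thinned cells [0 to 1.17] in wildtype and 0.29% [0.01 to 1.59] in Glut5 KO, at median depths of 3235 and 3403 UMIs. These bounds are for cells with a UMI, not for cells that express the gene.

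Dcstamp UMIs were unevenly spread among cells. In Glut5 KO monocyte/macrophage-like cells the top 1% of cells held 26.1% of its UMIs, and 1 cell had 34. Dpys was spread more evenly in that class, with 11.0% of UMIs in the top 1% of cells and at most 14 in a cell. In Glut5 KO cDC2-like cells the order was the reverse. There the top 1%, which is 3 cells, held 4.97% of Dcstamp UMIs and 20.3% of Dpys UMIs. In Glut5 KO cDC2-like cells 59 of 306 cells had 10 or more Dcstamp UMIs, against 3 of 291 in wildtype.

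Many of the same cells carried both genes. In Glut5 KO monocyte/macrophage-like cells 356 cells had both transcripts, which is 49.6% of the cells with Dcstamp and 23.1% of the cells with Dpys, while 34.0% of all cells of the class had Dpys. In Glut5 KO cDC2-like cells 83 cells had both, 42.6% of the Dcstamp cells and 93.3% of the Dpys cells. In that class 63.7% of all cells had Dcstamp. Cells with Dcstamp were deeper than their class in both cases, with medians of 9490.5 and 7570 UMIs for monocyte/macrophage-like and 10263 and 8885 for cDC2-like cells, and the part of depth in the overlap was not tested.

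The monocyte/macrophage-like class holds different kinds of cells, and their mix was not equal in the 2 libraries. A cluster led by Mrc1 and Fpr1 had 1127 of its cells in wildtype and 246 in Glut5 KO, and one led by Ly6i and Hp had 992 and 1504. Dcstamp was higher in Glut5 KO in each of the 6 clusters where it was measured, with log2 ratios from 3.34 to 5.34. Dpys was as well, from 3.45 to 4.54. The Gpnmb and Spp1 cluster, whose leading genes include ones known from lipid-laden macrophages, had the most Dcstamp in both libraries, 11.6 and 118 CPM. Dpys had its peak elsewhere, in the Ly6i and Hp cluster, at 8.47 and 116 CPM.

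Rims2 and Laptm4b also differed in the same direction across these clusters. Rims2 had 0 wildtype UMIs in the Ly6i, Mrc1 and Ccl7 clusters and 50, 59 and 122 in Glut5 KO. It had 0 in both libraries in the Chil3 and Slfn4 cluster. Laptm4b ratios ran from 0.60 to 1.90 over the 6 clusters where it was measured.

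Fbxo32 differed between clusters in direction. In the Gpnmb and Spp1 cluster it was 21.9 CPM in wildtype and 72.5 CPM in Glut5 KO, a log2 ratio of 1.73. In the Ly6i and Hp cluster it was 28.4 and 15.9 CPM, a ratio of -0.84, and in the Mrc1 and Fpr1 cluster 4.36 and 1.94 CPM, a ratio of -1.06 from 70 and 6 UMIs. The Chil3 and the Ccl7 clusters had -0.33 and -0.05. A small cluster led by T cell genes, with 102 and 106 cells in this gate, had 1.70. The higher level of the whole class in Glut5 KO was not shared by all its clusters.

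**Figure D3:**
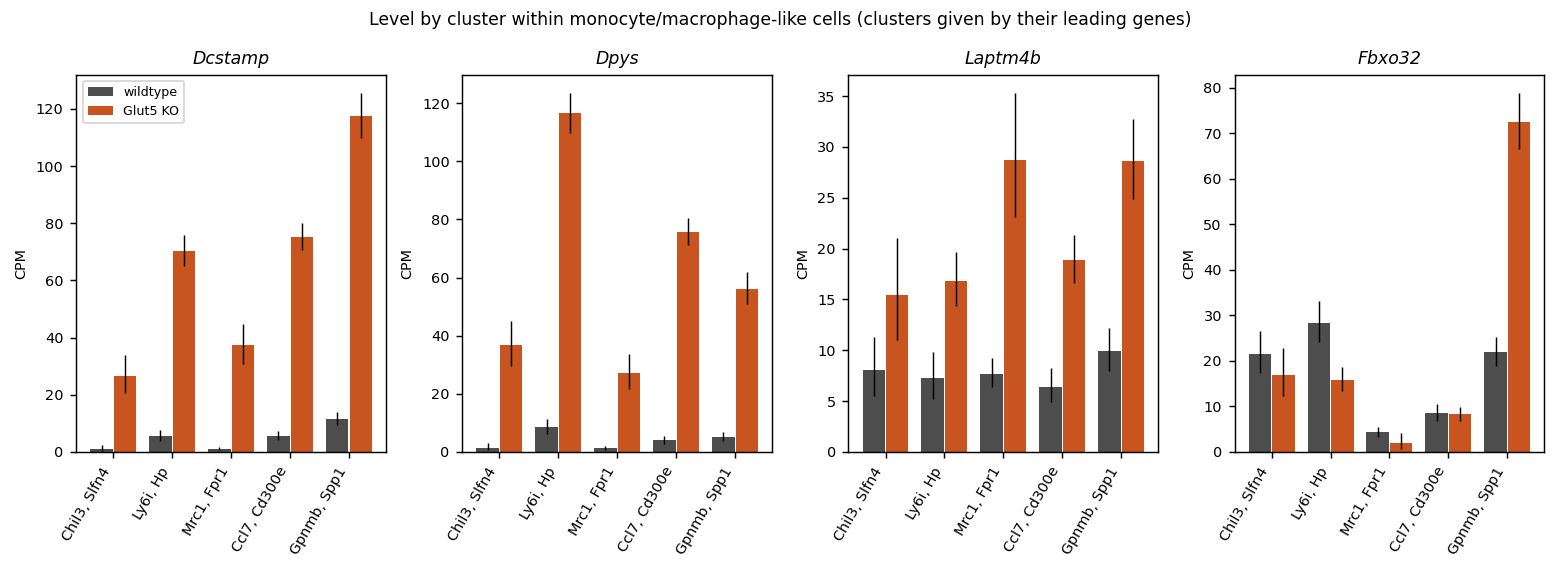
Level in CPM (bars, with exact 95% counting intervals) of Dcstamp, Dpys, Laptm4b and Fbxo32 in the 5 largest clusters of monocyte/macrophage-like cells, wildtype in grey and Glut5 KO in orange. The orange bars are higher in each cluster for Dcstamp, Dpys and Laptm4b, and for Fbxo32 in the Gpnmb and Spp1 cluster alone (21.9 and 72.5 CPM).

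Cells of opposite sex must come from different animals, so the differences were also taken within male cells and within female cells. A call needed any Y-linked UMI without Xist, or the reverse, so lost or carried-over RNA could misplace a cell. The rate of wrong calls was not tested. Left out were 4520 wildtype and 5555 Glut5 KO cells with neither kind of UMI, and 442 and 438 with both. In monocyte/macrophage-like cells Dcstamp was at 5.88 CPM in wildtype and 84.6 CPM in Glut5 KO among male cells, and 2.37 and 70.7 CPM among female cells. The log2 ratios were 3.84 [3.57 to 4.14] and 4.88 [4.38 to 5.46]. In this class the difference was present in cells of both sexes. The intervals of the sexes do not overlap, and the larger ratio was in female cells, unlike in microglia-like cells. The Dpys ratios, 4.43 in male and 4.59 in female cells, had overlapping intervals, as did those of Laptm4b (1.32 and 1.19) and Med30 (-0.44 and -0.45).

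Csmd3, Dcstamp and Fbxo32 had unequal ratios in the sexes. In microglia-like cells Csmd3 was 14.6 and 57.3 CPM in male cells (log2 ratio 1.97 [1.54 to 2.42]) and 31.0 and 40.3 CPM in female cells (0.38 [0.07 to 0.69]), so that it was past 2-fold in male cells alone. Dcstamp in microglia-like cells had 2 and 154 UMIs in male cells (6.72 [5.16 to 10.10]) and 19 and 210 in female cells (3.55 [2.90 to 4.34]). Of the 24 wildtype UMIs of that class, 12 lay in 1 cell, which by these counts was a female cell. The female ratio of Dcstamp thus rests in large part on 1 cell. Fbxo32 in monocyte/macrophage-like cells was 13.8 and 35.9 CPM in male cells (1.38 [1.15 to 1.61]) and 9.71 and 9.07 CPM in female cells (-0.10 [-0.46 to 0.27]). These pairs of intervals do not overlap, though they cover counting error alone and the number of animals behind each sex is unknown here. Among female cells the Laptm4b ratio was 0.88 in microglia-like and 0.28 in T cell-like cells, within 2-fold.

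**Figure D4:**
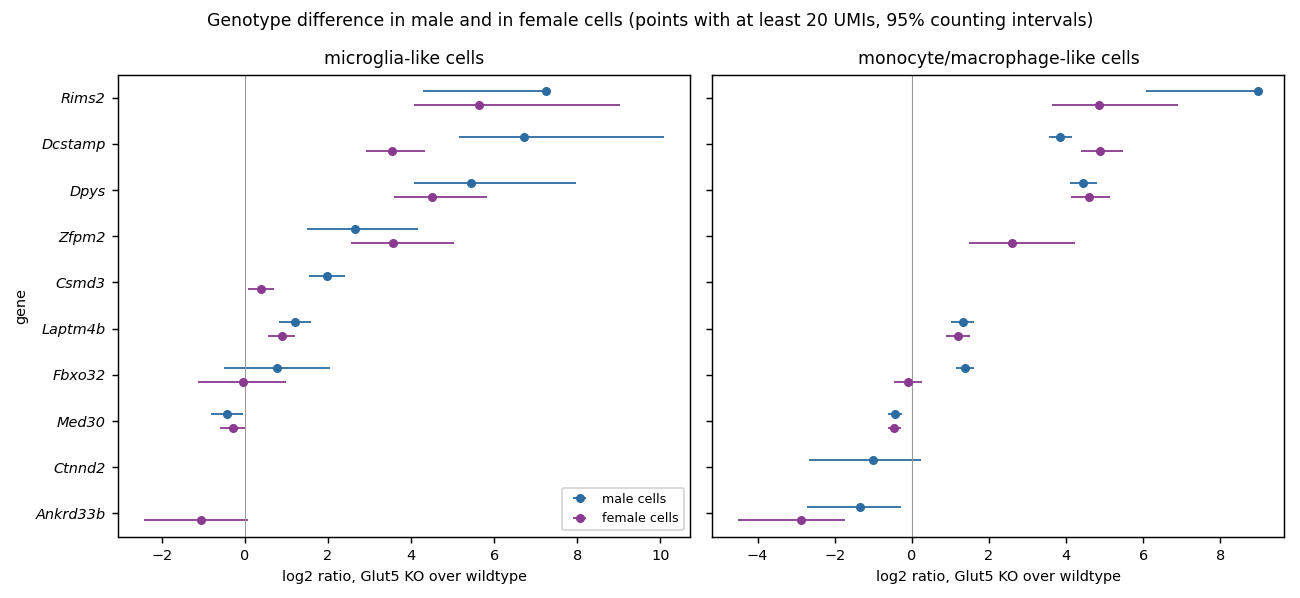
Log2 ratio of Glut5 KO over wildtype in male and in female cells for each gene with at least 20 UMIs, in microglia-like and monocyte/macrophage-like cells; bars are exact 95% counting intervals, with no upper end where wildtype had 0 UMIs. Dpys, Laptm4b and Med30 agree within counting error, while Csmd3 in microglia-like and Fbxo32 in monocyte/macrophage-like cells stand apart by sex. Dcstamp stands apart in both panels, with the larger ratio in male microglia-like and in female monocyte/macrophage-like cells.

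On the chromosome (GRCm38, GENCODE release 21 for mouse) the 4 of the 10 with the highest ratios in both macrophage classes follow each other. Rims2 (ENSMUSG00000037386) spans chr15:39198261-39684372 on the plus strand. Dcstamp (ENSMUSG00000022303) follows 61.6 kb later at chr15:39745930-39760938, also on the plus strand. Dpys (ENSMUSG00000022304) starts 7.55 kb beyond it, at chr15:39768487-39857470 on the minus strand. Dcstamp and Dpys face each other with their 3' ends. Zfpm2 (ENSMUSG00000022306) lies 798 kb further, at chr15:40655035-41104592.

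In the macrophage classes the genes between and beside them, which were not among those picked, differed less. Lrp12, between Dpys and Zfpm2, had log2 ratios of 0.49 in microglia-like and 0.65 in monocyte/macrophage-like cells, with 5 and 27 UMIs in cDC1-like cells (2.91 [1.62 to 4.75]) and 11 and 28 in cDC2-like cells (1.31). The noncoding AU022793 next to it was at 3.56 and 9.02 CPM in monocyte/macrophage-like cells, a log2 ratio of 1.34. Before Rims2, Dcaf13 had 32.7 CPM in both libraries in monocyte/macrophage-like cells, and Slc25a32 had 7.79 and 7.65 CPM. In NK cell-like cells the log2 ratio was 0.71 [0.18 to 1.27] for Dcaf13 and 1.01 [-0.01 to 2.21] for Slc25a32. Cthrc1, upstream of both and named after its values were seen, was at -1.86 in monocyte/macrophage-like cells.

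The other 6 genes lie farther off. Ctnnd2 (ENSMUSG00000022240, chr15:30172593-31029341, plus strand), Ankrd33b (ENSMUSG00000022237, chr15:31291478-31367726, minus) and Laptm4b (ENSMUSG00000022257, chr15:34238028-34284302, plus) come before Rims2. Csmd3 (ENSMUSG00000022311, chr15:47580637-48792063, minus), Med30 (ENSMUSG00000038622, chr15:52712408-52730564, plus) and Fbxo32 (ENSMUSG00000022358, chr15:58175879-58214932, minus) come after Zfpm2. Higher and lower genes follow each other along the stretch, with the lower Ctnnd2 and Ankrd33b at its start. Fbxo32 overlaps the antisense gene Gm15943.

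Of the 218 genes between 30 and 60 Mb, 93 were measured in at least 1 class. Of these, 16 were at least 2-fold higher and 16 at least 2-fold lower in a class, where 8.47% and 8.87% of all genes were. Without the 10, 83 were measured, 10 of them higher and 13 lower. Atpsckmt, a mitochondrial methyltransferase gene near Ankrd33b, had log2 ratios from -1.10 to -0.59 over all 7 classes. Matn2 had a log2 ratio of -1.96 in monocyte/macrophage-like cells, Col14a1 -1.02, Dscc1 -0.97 and Sntb1 1.72. Dscc1 was at -1.07 in microglia-like cells.

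By bins of 10 Mb, the stretch from 30 to 40 Mb had 31.8% of its 44 measured genes past 2-fold in monocyte/macrophage-like cells (5 higher and 9 lower) and the next bin 33.3% of 9, against 4.92% of all genes. The bin from 50 to 60 Mb had 7.89% and that from 60 to 70 Mb 0 of 20. In microglia-like cells the shares were 18.2% and 25.0% in the first 2 of these bins, against 3.6% of all genes. These bin shares include the 10 genes, which were picked on this contrast, so nothing is read from the gap. The 2 called microglia-like genes of the bin from 40 to 50 Mb were Zfpm2 and Csmd3. Without the 10 genes, the whole window stood at 14.8% in monocyte/macrophage-like and 3.03% in microglia-like cells. The nearest genes outside it, Trio and Otulinl before and Gm2682 and Lratd2 after, had log2 ratios from -0.12 to 0.80 in monocyte/macrophage-like cells. Gm2682 was past 2-fold in cDC1-like (-1.23 [-2.13 to -0.46]) and in migratory dendritic cell-like cells (1.204 [0.42 to 2.06]).

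**Figure D5:**
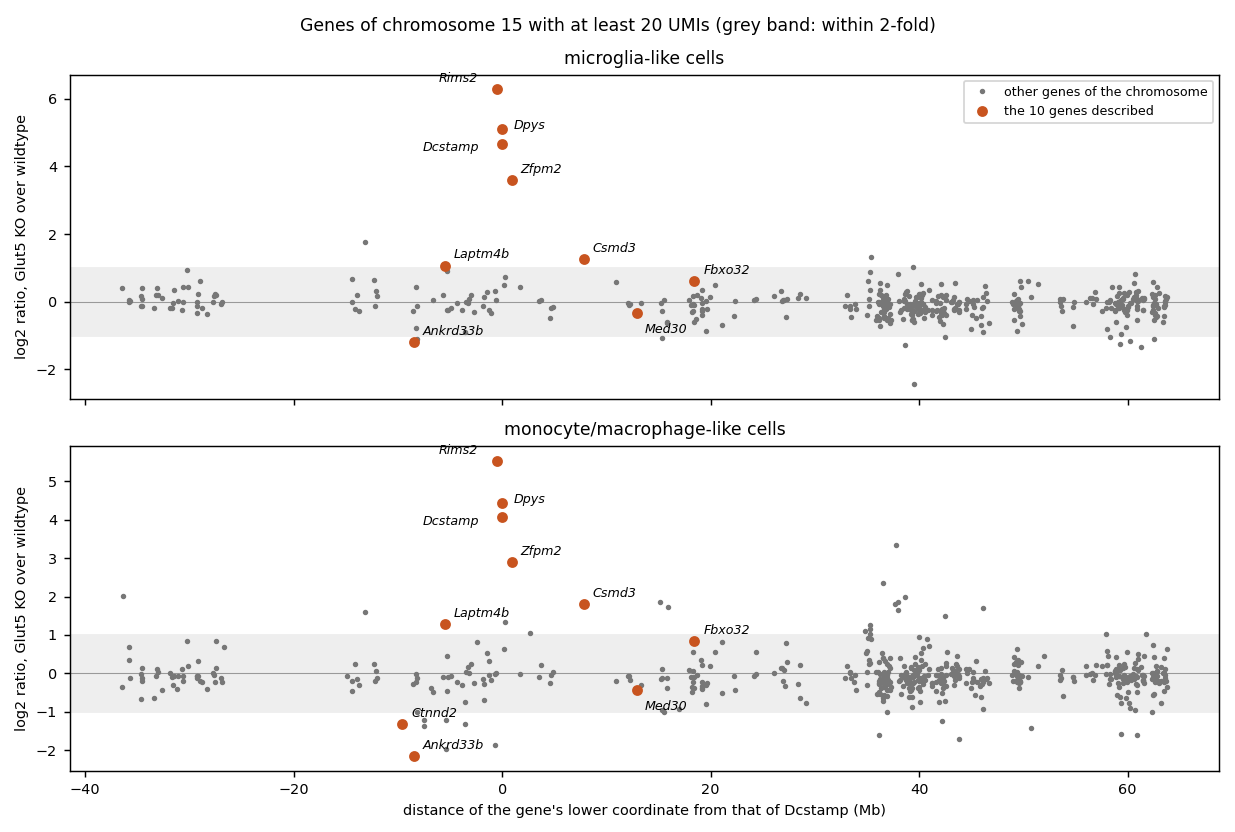
Log2 ratio of Glut5 KO over wildtype of the genes of chromosome 15 with at least 20 UMIs, by distance in Mb from Dcstamp, in microglia-like and monocyte/macrophage-like cells. The 10 genes are orange and named, the grey band spans ratios within 2-fold, and of these Rims2, Dpys, Dcstamp and Zfpm2 stand highest in both panels, with ratios of 2.89 or more. Rims2, Dpys and Dcstamp lead the chromosome in both, and Apol7c (3.34) lies above Zfpm2 in monocyte/macrophage-like cells.

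The known partners of these genes were read in the macrophage classes, from lists of related genes. Of 25 genes of cell fusion and osteoclast formation, in which Dcstamp acts, 18 were measured in microglia-like cells and 21 in monocyte/macrophage-like cells. Past 2-fold were 1 and 2, all higher, where 1.22% and 2.6% of all measured genes were. The list had medians of 0.11 and 0.13 on the log2 scale beside -0.04 and -0.07 over all genes. Atp6v0d2, a proton pump subunit of osteoclasts, was the 1 called in microglia-like cells, at 1.13 [-0.13 to 2.53] from 9 and 15 UMIs. That interval includes 0. Itgb3 had the next highest ratio of the list there, 0.79 [0.37 to 1.22] from 85 and 110 UMIs, within 2-fold. It was at 0.85 [0.32 to 1.41] in monocyte/macrophage-like cells. In monocyte/macrophage-like cells Atp6v0d2 was at 1.90 and Ctsk, the bone-degrading protease of osteoclasts, at 3.95. The acid phosphatase gene Acp5 was at -0.81 and -0.45, and Ccl2, a chemokine gene, at -0.44 in microglia-like and 0.15 in monocyte/macrophage-like cells. Cd81, a membrane organiser gene, was at 0.11 and -0.76, and Ocstamp, the fusion gene most like Dcstamp, at -0.25 in monocyte/macrophage-like cells.

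Of pyrimidine breakdown genes and relatives of Dpys, 4 and 6 of 10 were measured, with medians of 0.01 and -0.14. In microglia-like cells 1 was past 2-fold higher and 1 lower (3.6% of all genes in either direction), and in monocyte/macrophage-like cells 1 was higher (4.92%). Upp1, which cleaves uridine, had log2 ratios of 1.44 in microglia-like and 2.32 in monocyte/macrophage-like cells, and Dpysl3 had -2.29 in microglia-like cells. All 29 other Mediator subunits on the list were measured in both classes and 0 was past 2-fold (3.6% and 4.92% of all genes), with medians of -0.12 and -0.11. Med30 itself was at -0.33 in microglia-like cells, where Med18 was lower at -0.85. In monocyte/macrophage-like cells Med30, at -0.43, was below the lowest of the others, Med25 at -0.37, and their intervals overlapped. Laptm4a and Laptm5, the relatives of Laptm4b, were at 0.16 each in microglia-like cells and at 0.04 and 0.00 in monocyte/macrophage-like cells. Of 12 wasting and FoxO target genes, which stand beside Fbxo32, 10 were measured and 0 was past 2-fold (against the same shares of all genes), with medians of 0.02 and 0.08. Of 8 relatives of Rims2, Csmd3, Ctnnd2, Zfpm2 and Ankrd33b, 3 were measured and 0 was past 2-fold, again beside 3.6% and 4.92%, with medians of 0.02 and -0.10.

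Over the 7 classes and 2 libraries, the genes whose levels moved most like Dcstamp among 12560 genes were Sdccag8 (Pearson r 0.82 over 14 points on log2(CPM + 1)), Dpys (0.82), Kdm6b (0.80), Tob2 (0.79) and Tvp23a (0.79). Dpys was among the 5 nearest and is the only one that neighbours Dcstamp. The 14 points share 2 libraries and differ in depth. They also hold the difference between the libraries on which both Dcstamp and Dpys were picked, so the place of Dpys follows in part from the picking. These values only describe the pattern.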

How the data were processed

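The authors deposited raw UMI counts per barcode and gene, per the file headers, made with 10x 5' v2 kits, per the labels' protocols. The submitters' processing notes name mm10 and Cell Ranger 3.1.0, and the header of the matrices 7.0.1. The sources used here do not state the annotation release, intron counting or strand setting.

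Barcodes with at least 300 genes and under 10% mitochondrial UMIs were kept (22 wildtype and 53 Glut5 KO barcodes removed). A cell's class score was the mean of its markers' log levels, each relative to the 50 highest cells. Markers found in over 80% of cells (Bst2) were left out. A cell joined a class at a score of at least 0.15 and 1.5 times the next class. Doublets were not removed in the main values. Clusters came from scanpy 1.11.5 (Leiden method, resolution 1). Class names rest on transcripts alone and end in -like.

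UMIs were summed per class and library and divided by the class total (CPM). Ratios had 0.5 added to each count. A gene was measured with at least 20 UMIs over both libraries and called past 2-fold. Intervals are exact Poisson (levels), Clopper-Pearson (shares) and conditional binomial (ratios), at 95%. UMIs of 0 got a floor of 3 counts.

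The 10 genes and the gene lists were chosen with earlier results of these data known. Named genes were the 10, Slc2a5, other genes of the window with at least 100 UMIs past 2-fold in microglia-like or monocyte/macrophage-like cells, the nearest 2 genes on each side, the 5 most like Dcstamp and the ends of each list. Neighbours of Dcstamp, Ocstamp and C1qa, Lyz2 and Ptprc were added after values were seen. Scripts were tested on simulated data. The stricter gate was run as a score of at least 0.25 and 2.5 times the next class, in place of the wording first planned.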

Additional observations from a re-analysis of the deposited data

Results flagged for a closer look

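In 4 cases ratios had opposite signs in male and in female cells, and the difference between the sexes was not tested. The log2 ratio of Fbxo32 in monocyte/macrophage-like cells was 1.38 in male and -0.10 in female cells, and in microglia-like cells 0.77 and -0.05. For Laptm4b it was -0.28 in male and 0.20 in female cDC1-like cells, and 0.45 and -0.25 in migratory dendritic cell-like cells. The counting intervals of the migratory pair, like those of Fbxo32 in monocyte/macrophage-like cells, do not overlap.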

How the results depend on the processing

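No paired analysis was possible because each genotype has 1 library. Of 45 measured values of a gene in a class, 30 were past 2-fold, and none of these reversed under any alternative run. All 30 stayed past 2-fold under median-ratio scaling, under totals without mitochondrial, ribosomal, immunoglobulin and haemoglobin genes, without a barcode filter and without barcodes shared by the libraries. With stricter barcode limits, and without mixed cells, 29 of 29 stayed. The runs without shared barcodes and without mixed cells were chosen after seeing the data. The numbers were 27 of 30 with 1 CPM added, 27 of 29 without high Scrublet scores, 22 of 23 under the stricter gate, 25 of 28 by named clusters, 21 of 22 in male and 19 of 23 in female cells.

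Counts of classes or genes past 2-fold moved by over 1.5 times as follows. Csmd3 had 1 class in place of 2 with 1 CPM added. The stricter gate gave 5 genes in monocyte/macrophage-like and 2 in T cell-like cells, and 2 classes for Ctnnd2, 3 for Dpys and 1 for Csmd3. Male cells gave 2 genes in cDC1-like, 1 in migratory and 1 in NK cell-like cells, and 2 classes for Ctnnd2, 1 for Zfpm2, 1 for Csmd3 and 2 for Fbxo32. Female cells gave 2 genes in cDC1-like and 2 in T cell-like cells, and 1 class for Ctnnd2, 1 for Laptm4b, 3 for Dpys and 0 for Csmd3, and Fbxo32 was past 2-fold lower in T cell-like (-1.01) and Med30 in migratory cells (-1.07).

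With no UMI minimum there were 7 genes each in cDC1-like, migratory and NK cell-like cells, and 7 classes for Ctnnd2, 5 for Ankrd33b, 6 for Rims2, 6 for Zfpm2 and 5 for Csmd3. With at least 100 UMIs there were 5 genes in monocyte/macrophage-like, 1 in cDC1-like and 1 in migratory cells, and 1 class each for Ctnnd2, Zfpm2 and Csmd3. At 1.5-fold Fbxo32 had 2 classes. Smaller gates measured fewer genes by construction. In NK cell-like cells 8 of the 10 genes stayed under 20 UMIs, and the part of depth in that was not tested.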
